A study of Mus musculus with 4 samples.

Results

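The barcodes described here are 110 single-nucleus profiles from aortic tissue that carried transcripts of the catecholamine-making chromaffin cell, and they came from 1 of 4 libraries. In that library a barcode was a member when it had at least 300 detected genes, at most 10% mitochondrial counts, and a unique molecular identifier (UMI, 1 counted molecule) of at least 2 of the 5 genes Chga, Chgb, Th, Dbh and Pnmt, with Chga or Chgb among them. It also had to show a UMI of at most 1 of 9 genes that mark other cells (Akr1cl, Srd5a2, Hsd3b1, Csf1r, Pecam1, Pdgfra, Myh11, Adipoq and Ucp1). The members were 110 of 28093 kept barcodes of that library and of 107709 kept barcodes in the whole study. Since these counts chose the members, the levels of the 5 and of the 9 genes are a description and no result.

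All mice carried the CA1 knockin on the ApoE-/- background, where CA1 is carbonic anhydrase 1 (mouse gene Car1), a cytosolic enzyme, and ApoE-/- mice lack the apolipoprotein E that clears lipoproteins from blood and develop atherosclerosis on a fatty diet. The members' library, called MTZ_after, was from mice on high-fat food that received methoxazolamide (MTZ, described in the labels as a CA1 inhibitor) once atherosclerosis was established. The others were MTZ_simultaneous, from mice given the same food and MTZ together, high_fat, from mice on the food alone, and untreated, from mice with neither. Each group was 1 library, and the labels used here give neither the number of animals behind it nor the promoter that drives the knockin, so no difference between libraries could be set against variation between animals.

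Chromaffin cells are neural crest derivatives of the adrenal medulla and of paraganglia that lie along the abdominal aorta. They convert tyrosine to dopamine, noradrenaline and, where Pnmt is present, adrenaline, load these into dense-core granules together with granins, and release them when acetylcholine from preganglionic nerves opens nicotinic receptors. Sympathetic ganglion neurons share the ancestry and much of the catecholamine pathway, but also carry neurofilaments and long axons.

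The promoters shown are those of Chga, Chgb, Th and Scg2, which encode granins and the first enzyme of catecholamine synthesis. Chga, Chgb and Th are rule genes and Scg2 is not. All of them held a cyclic AMP response element or its core near the RefSeq start of the gene. Not every rule gene did: 4 of the 5 had a promoter entry, and 3 of those 4 held the core, with Dbh lacking it. The 300 bases run from 250 before to 50 after the RefSeq gene start on GRCm38.p6, written 5′ to 3′ on the gene's strand. Capitals mark the palindromic motif TGACGTCA in Chgb, Th and Scg2 and its first 6 letters, TGACGT, in Chga. The windows are chr12:102554691-102554990 on the plus strand for Chga, chr2:132781392-132781691 on the plus strand for Chgb, chr7:142899946-142900245 on the minus strand for Th and chr1:79439977-79440276 on the minus strand for Scg2.
Chga: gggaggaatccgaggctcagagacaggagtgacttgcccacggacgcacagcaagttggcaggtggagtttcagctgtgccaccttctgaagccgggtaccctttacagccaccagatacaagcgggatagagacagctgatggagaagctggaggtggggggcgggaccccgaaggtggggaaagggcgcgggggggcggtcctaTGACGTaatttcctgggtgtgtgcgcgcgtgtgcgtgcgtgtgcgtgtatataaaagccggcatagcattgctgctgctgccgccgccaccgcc
Chgb: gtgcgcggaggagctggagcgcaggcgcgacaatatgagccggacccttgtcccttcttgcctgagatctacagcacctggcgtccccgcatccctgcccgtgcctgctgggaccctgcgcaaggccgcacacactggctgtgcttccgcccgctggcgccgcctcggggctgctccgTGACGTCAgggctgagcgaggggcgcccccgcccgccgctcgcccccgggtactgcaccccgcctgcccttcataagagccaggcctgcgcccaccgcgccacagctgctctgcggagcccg
Th: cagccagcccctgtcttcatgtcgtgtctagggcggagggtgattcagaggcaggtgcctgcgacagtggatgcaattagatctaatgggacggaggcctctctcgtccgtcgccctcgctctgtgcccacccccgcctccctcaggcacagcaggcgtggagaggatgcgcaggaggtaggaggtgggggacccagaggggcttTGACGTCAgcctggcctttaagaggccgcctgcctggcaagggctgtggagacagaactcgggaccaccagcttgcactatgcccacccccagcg
Scg2: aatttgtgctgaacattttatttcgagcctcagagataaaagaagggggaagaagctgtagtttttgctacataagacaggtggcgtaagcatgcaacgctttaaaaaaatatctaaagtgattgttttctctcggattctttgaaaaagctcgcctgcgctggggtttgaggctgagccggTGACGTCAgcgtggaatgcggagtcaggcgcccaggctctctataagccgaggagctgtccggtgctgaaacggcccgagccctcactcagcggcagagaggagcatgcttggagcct
In the GENCODE vM21 annotation of GRCm38, Chga lies at chr12:102554969-102565028, Chgb at chr2:132781278-132795079, Th at chr7:142892752-142931128, Dbh at chr2:27165233-27183200 and Pnmt at chr11:98386450-98388181. The transporter genes Slc18a1 and Slc6a2, which divide the members below, lie at chr8:69037711-69089235 and chr8:92960079-93001667, and Cntnap2 at chr6:45059357-47304213. The motif began 44 bases before the RefSeq start in Chga, 72 in Chgb, 45 in Th and 68 in Scg2. The GENCODE bounds above differ from these starts, so the distances do not apply to them. Both strands were searched, and every TGACGTCA match is also a TGACGT match. TGACGTCA was present in 5 of 28 promoter entries (17.9%) that matched 25 of the 33 genes of the catecholamine and granin lists, namely Cartpt, Chgb, Scg2, Slc18a2 and Th, against 588 of all 32851 promoters of the table (1.79%). The shorter TGACGT was present in 10 of the 28 entries (35.7%), against 2468 of all promoters (7.51%). These letters describe the windows and say nothing of which factor was bound in these nuclei.

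Most members met the rule with the fewest markers it allows. Exactly 2 of the 5 markers had a UMI in 87 members, 3 in 16, 4 in 7 and all 5 in 0. Chgb (chromogranin B) had a UMI in 93 members (84.5%), Chga (chromogranin A) in 72 (65.5%), Dbh (dopamine beta-hydroxylase, which makes noradrenaline) in 37 (33.6%), Th (tyrosine hydroxylase, the first step) in 33 (30%) and Pnmt (which makes adrenaline) in 15 (13.6%). The commonest pairs were Chga with Chgb in 55 members, Chgb with Dbh in 30 and Chgb with Th in 26, whereas Th and Dbh were found together in 10 and Dbh and Pnmt in 1. In the macrophage-type barcodes defined below the shares were 3.52% for Chgb, 1.88% for Chga, 1.64% for Dbh, 0.705% for Th and 0.392% for Pnmt. Another 53 barcodes met the marker part but had UMIs of 2 or more of the 9 other-cell genes, of which 36 had exactly 2.

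Members were placed together by genes that the rule did not use. Clustering of all kept MTZ_after barcodes put 89 of the 110 members in 1 cluster of 1031 barcodes, and the same number fell into 1 cluster when the 14 rule genes were left out of the variable genes. The other 21 members were spread over 7 clusters with at most 4 in each. Clusters led by Il6 and Cdh12, by Gpnmb and Ctsl, and by Clec4b1 and F13a1 held 4 members each. Those led by Adrb3 and Pdk4 and by Opcml and Tnfaip6 held 3 each. One led by Hpse2 and Frem2 held 2, and one led by Caln1 and Slc6a5 held 1. These 21 are kept in the counts and sums over all members. The cluster as a whole was led by Cntnap2, a neurexin-family adhesion protein, which was 103.5 times as abundant there per UMI as in other barcodes. Few barcodes carried it: 122 of the 1031 had a UMI, and 913 of the 2253 UMIs lay in 9 members that are described below as ganglion-gene members.

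The thresholds of the rule divided barcodes that lay partly in the same cluster. All 23 members with 3 or more markers were in it, as were 66 of the 87 members with exactly 2 (75.9%). Just outside, 168 of 614 barcodes with Chga or Chgb alone were in it (27.4%), and so were 26 of the 36 that had exactly 2 other-cell genes.

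A set of 10 genes outside the rule served as a check of the name, among them Slc18a1, Slc18a2, Ddc, Phox2a, Scg2, Insm1, Chrna3, Chrnb4 and Cyb561, which encode vesicle transporters, an enzyme, transcription factors, a granin, nicotinic receptor subunits and an ascorbate-linked granule protein. At least 1 of the 10 had a UMI in 79 members (71.8%) and at least 2 in 50 (45.5%). Among 1277 macrophage-type barcodes, defined by UMIs of at least 2 of Csf1r, Adgre1, Mrc1 and F13a1 and not known to express these genes, at least 1 had a UMI in 170 (13.3%) and at least 2 in 27 (2.11%). The median depth was 1186 UMIs in the members and 1323 in the macrophage-type barcodes, and the macrophage-type shares are given as a comparison at a similar depth. They are not a background of free RNA alone, since 63 of the 1277 lay in the cluster of 1031 barcodes that held most members. The marker part of the rule was met by 12 of 1282 macrophage-type barcodes, members included, and by 2 of the 1216 outside that cluster. The 31 members without any of the 10 genes are kept in every count below.

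Placement and the check genes went together. At least 1 of the 10 genes had a UMI in 73 of the 89 members inside the main cluster (82.0%) and in 6 of the 21 outside it (28.6%). The marker part of the rule was met by 128 of the 1031 barcodes of the cluster (12.4%), by 35 of the 27062 outside it (0.129%) and by 2 of the 1216 macrophage-type barcodes outside it (0.164%, interval 0.0199 to 0.593). Intervals here and below are 95% intervals, exact Clopper-Pearson for shares, exact Poisson for levels and exact conditional for ratios, and cover counting error only. The share outside the cluster lay within the interval of the macrophage-type barcodes, but that interval is wide and rests on 2 barcodes. The 1216 are also part of the 27062, so the comparison decides nothing about the 21 members outside the cluster.

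A second list set 10 members apart, which had UMIs of at least 2 of 12 genes listed for sympathetic ganglion neurons (among them Slc6a2, Prph, Nefm, Nefh, Ntng1, Tubb3, Gfra3, Cartpt, Chat, Slc18a3 and Sst). These 10 are called ganglion-gene members below. The check genes did not divide the members in this way: at least 1 had a UMI in all 10 and in 69 of the other 100, and at least 2 in 9 of the 10 and in 41 of the 100. Slc18a1, a check gene, was at 0 UMIs in all 10, and so was Pnmt, which 85 of the 100 also lacked. They were deep, with 1533 to 18215 UMIs (median 4886), against 517 to 5515 (median 1079) in the other 100 members. They held 72275 of the 214336 member UMIs (33.7%), so sums over the 110 members leaned on them, and most values are also given without them. The split was made after their values were seen.

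The 12 genes chose the 10 members, and their values describe that choice. Slc6a2, the noradrenaline transporter that returns released noradrenaline to the cell, had 1 to 33 UMIs in the 10 (median 4), against 3 UMIs in all among the 100. Prph, an intermediate filament of peripheral neurons, had 29 UMIs in 4 of the 10 and 0 in the 100. Nefm, a neurofilament subunit, had 9 UMIs in 5 of the 10 and 0 in the 100. Sst, Chat, Slc18a3 and Cartpt were at 0 in all 110 members.

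**Figure D1:**
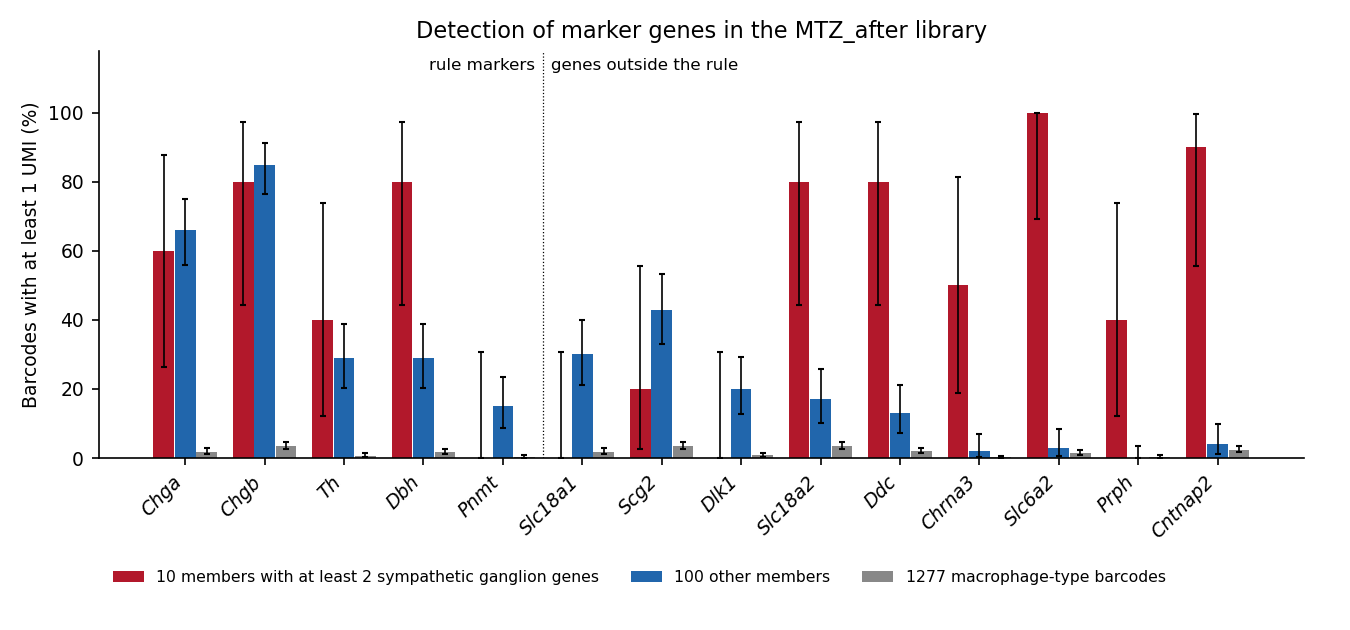
Share of barcodes of MTZ_after with at least 1 UMI (%, bars, with exact 95% intervals) of 14 genes in the 10 ganglion-gene members, the 100 other members and 1277 macrophage-type barcodes. Slc18a1 was found in 0 of the 10 and 30 of the 100, Slc6a2 in 10 of the 10 and 3 of the 100, and the macrophage-type shares were at most 3.52% (Chgb and Scg2). Of the macrophage-type barcodes, 63 lay in the main cluster.

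Genes outside the list of 12 differed between the same members. Of 936 genes with enough counts to compare, 289 were at least 2-fold higher in the 10 than in the 100 (30.9%) and 269 at least 2-fold lower (28.7%), so a difference of this size was common between these small sets. Cntnap2 reached 12632 CPM (UMIs scaled to a total of 1000000) in the 10 and 42.2 CPM in the 100, a ratio of 299 (137 to 817). It ranged from 0 to 265 UMIs per barcode in the 10 (median 63) and had a UMI in 9 of them, and was found in 4 of the 100. Lingo2, a leucine-rich repeat membrane protein, had 295 UMIs in the 10 and 2 in the 100. Elavl2, an RNA-binding protein of neurons, had 146 UMIs spread over all 10, and 2 UMIs in the 100.

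Among single genes of enzymes, channels and release, some were higher in the 10 and others were not. Maoa, the mitochondrial oxidase that breaks down noradrenaline, had 2 to 26 UMIs in each of the 10 (1273 CPM) and 8 UMIs in the 100 (56.3 CPM). Kcnh7, a potassium channel subunit, had 142 UMIs in the 10 and 0 in the 100, a ratio of at least 93.0 against a floor of 3 counts over the 100. Fgf14, which binds sodium channels, reached 12300 CPM in the 10, with a UMI in all of them, and 507 CPM in the 100, with a UMI in 36. Syt1, a calcium sensor of vesicle release, was found in all 10 (8910 CPM) and in 68 of the 100 (1232 CPM). Gch1, of cofactor synthesis, was at 208 CPM in the 10 and 190 CPM in the 100, and the calcium channel gene Cacna1d at 180 and 704 CPM.

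Other genes were low or missing in the 10 although these were the deeper barcodes. Slc18a1, the vesicle monoamine transporter typical of chromaffin granules, was at 0 in the 10, which at the floor of 3 counts allows up to 41.5 CPM, and had 45 UMIs in 30 of the 100 (317 CPM, 231 to 424). Dlk1, a Notch-ligand-like membrane protein present in the adrenal medulla, was at 0 in the 10 and had 39 UMIs in 20 of the 100 (275 CPM). Scg2, the precursor of secretoneurin, had 2 UMIs in the 10 (27.7 CPM) and 80 UMIs in 43 of the 100 (563 CPM). Mgat4c, of the N-acetylglucosaminyltransferase family, had 1 UMI in the 10 and 304 UMIs in 69 of the 100, with 0 to 19 UMIs per barcode.

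Further genes of that direction were Lrp1b (1 UMI in the 10, 254 in the 100), Dock10 (1 and 188), Pcdh15 (0 and 114), Tafa1 (0 and 102), Rtl4 (0 and 99) and the potassium channel gene Kcnk2 (0 and 76). The rule markers Chga (111 and 669 CPM) and Chgb (166 and 1042 CPM) were also lower per UMI in the 10, but a deeper barcode meets the rule at a lower CPM. Thinning every barcode to 500 UMIs, below which 0 barcodes fell, left Cntnap2 in 90% of the 10 and 2% of the 100 (90% and 4% without thinning). It left Slc18a1 in 0% of the 10 and 12% of the 100 (0% and 30% without thinning). With 10 barcodes the interval of 0% runs up to 30.8%. The level of Slc18a1 rests on 72275 UMIs, of which the deepest barcodes held 18215 and 17314. Its bound covers counting error only and not variation between barcodes.

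**Figure D2:**
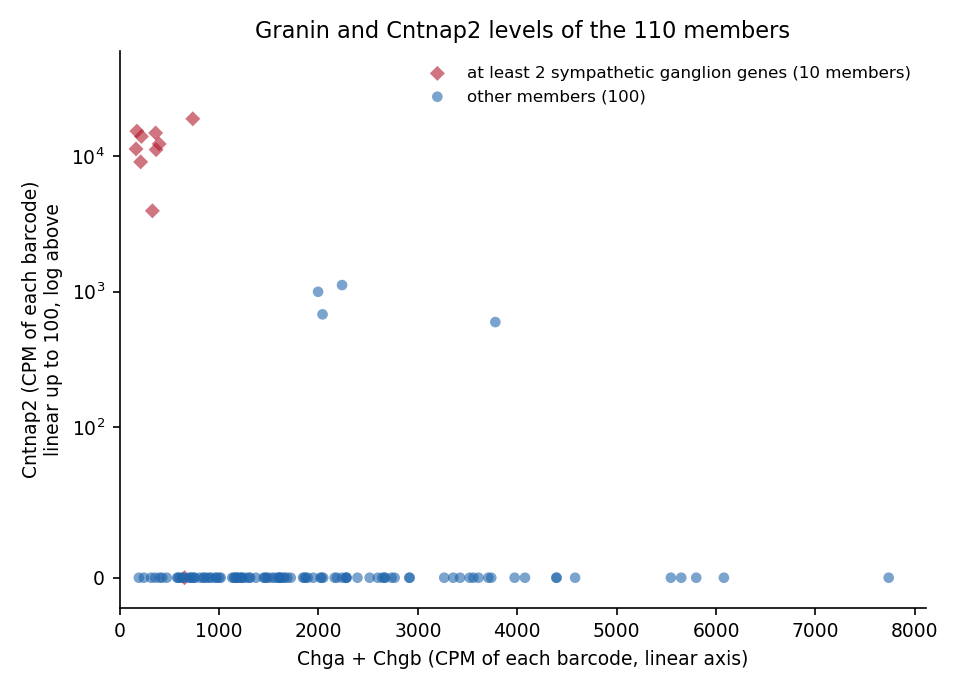
Summed Chga and Chgb level (x, CPM of each barcode, linear axis) against the Cntnap2 level (y, CPM of each barcode, linear up to 100 and logarithmic above) for the 110 members, 1 point each. Cntnap2 was found in 9 of the 10 ganglion-gene members and in 4 of the 100 others, most of which lie at 0 on the y axis.

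The transporters Slc18a1 and Slc6a2 were also counted barcode by barcode. Slc18a1 had a UMI in 30 members, Slc6a2 in 13, and both in 2. In the 942 other barcodes of the main cluster they were found in 114 (12.1%) and 60 (6.37%), and both in 1. At least 2 ganglion genes had UMIs in 39 of these 942 (4.14%) and in 23 of 27041 barcodes outside the cluster (0.0851%), and at least 2 of the 10 check genes in 161 (17.1%) and 144 (0.533%). Both lists were met by 15 of the 942 (1.59%), so the lists do not mark opposed sets. The cluster thus held barcodes with genes of either list beyond the members, and most of these 942 barcodes (757, 80.4%) met neither.

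The members were next set against the other 27983 kept barcodes of MTZ_after, which held 31288848 UMIs at a median of 827. A gene was compared when it had at least 20 UMIs in the members or would have had 20 at the level of the other set, and was called higher at a CPM ratio of at least 2 and lower at 0.5 or less. Of 3179 genes compared, 450 were higher in the members (14.2%) and 344 lower (10.8%). Without the ganglion-gene members, 2073 genes were compared, of which 215 were higher (10.4%) and 75 lower (3.62%), and 199 and 65 of these were called in the same direction with them. A gene that is rare elsewhere could be compared only where it was abundant in the members, so the counts of a list below describe the genes that passed and are not support for the list. Likewise, a gene rare in the members could be compared only where it was abundant in the other set. The median log2 ratio of all genes compared was -0.27 with the ganglion-gene members and -0.14 without them.

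Of 16 genes of catecholamine synthesis, storage and breakdown, 11 could be compared, 10 of these were higher and 0 lower, with a median log2 ratio of 4.11. Without the 10 ganglion-gene members 6 could be compared and all 6 were higher, with a median of 4.79. Th, Dbh and Pnmt of the rule are in both counts, so that without the 10 only Slc18a1, Slc18a2 and Gch1 were independent of it. Ddc, the decarboxylase that forms dopamine, was at 257 CPM in the members and 14.8 CPM in other barcodes, a ratio of 17.3 (12.8 to 22.9). Of its 55 member UMIs, 39 lay in the ganglion-gene members, and the ratio without them was 7.59 (4.30 to 12.5). Gch1, which starts the synthesis of the cofactor of Th, was at 196 and 33.1 CPM, a ratio of 5.91 and of 5.73 without the 10.

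The vesicle transporters divided between the members. Slc18a1 was at 210 CPM in the members and 11.7 CPM in other barcodes, a ratio of 17.9 (12.9 to 24.5) and of 27.1 (19.4 to 37.0) in the 100 alone. Slc18a2, the vesicle monoamine transporter of neurons and of chromaffin cells, was at 387 and 27.8 CPM, a ratio of 13.9 (11.0 to 17.4), and of 5.56 (3.47 to 8.48) in the 100, where 22 of its 83 UMIs lay. Cyb561, which passes electrons into the granule for Dbh, had ratios of 5.70 and 2.58. Slc6a2 was at 415 and 9.84 CPM with a ratio of 42.2, and of 2.15 (0.440 to 6.33), from 3 UMIs, in the 100. Maoa had a ratio of 12.3 (9.93 to 15.1) in all members and 1.49 (0.640 to 2.94) in the 100. Ddc and Cyb561, with 16 and 12 UMIs in the 100, were under the count minimum there. Outside the rule, Slc18a1, Slc18a2 and Gch1 were thus higher with and without the 10 members, while most of the UMIs of Slc6a2 and Maoa lay in those 10.

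Among the 17 granin and peptide hormone genes, 5 could be compared and all 5 were higher, Chga and Chgb of the rule among them, with a median log2 ratio of 4.92 (4 of 4, median 4.97, without the 10). Scg2 was at 383 CPM in the members and 24.4 CPM in other barcodes, a ratio of 15.6 (12.3 to 19.7) and of 23.0 (18.1 to 29.0) in the 100. Scg5, the chaperone of a prohormone convertase, was at 126 and 3.52 CPM, a ratio of 35.8 (22.6 to 55.0) and of 32.0 in the 100. Npy (neuropeptide Y) was at 247 and 11.0 CPM, a ratio of 22.4 (16.5 to 30) and of 15.3 in the 100, with 8 of the 10 ganglion-gene members and 19 of the 100 others showing a UMI. Penk, the enkephalin precursor known from chromaffin granules, was at 0 UMIs in the members. At the floor of 3 counts this allows up to 14 CPM.

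Peptide processing genes did not share the difference. Of 8 genes, 5 could be compared and only Pcsk1, the prohormone convertase PC1/3, was called higher, at 135 CPM in the members and 3.39 CPM in other barcodes, a ratio of 39.9 (25.5 to 60.7) and of 41.6 in the 100. Cpe, the carboxypeptidase that trims the cut peptides, was at 266 and 407 CPM, a ratio of 0.653 (0.495 to 0.847) and of 0.778 in the 100. Pam, which amidates them, had a ratio of 0.946 (0.830 to 1.07) and of 0.827 in the 100.

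Of 39 genes of regulated exocytosis, 21 could be compared, 17 were higher and 1 lower, with a median log2 ratio of 4.53. Without the ganglion-gene members 10 could be compared, 6 were higher and 0 lower, with a median of 3.27. Snap25, a membrane partner of vesicle fusion, was at 686 CPM in the members and 25.1 CPM in other barcodes, a ratio of 27.4 and of 19.7 (15.2 to 25.1) in the 100. Cadps, which primes dense-core vesicles, was at 900 and 24.4 CPM, with ratios of 36.8 and 18.1 (13.8 to 23.5). Rab3c, a small GTPase of secretory vesicles, had ratios of 25.1 and 24, and Ptprn2, a membrane protein of dense-core granules, 25.2 and 22.2. Syt1 had ratios of 46.6 and 15.0, whereas Syt4 and Syt9 reached 44.2 and 30.5 with all members but had 99 of 107 and 28 of 29 UMIs in the 10. Cadps2 was the gene called lower, at 117 and 271 CPM, a ratio of 0.431 (0.279 to 0.637) and of 0.598 in the 100.

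**Figure D3:**
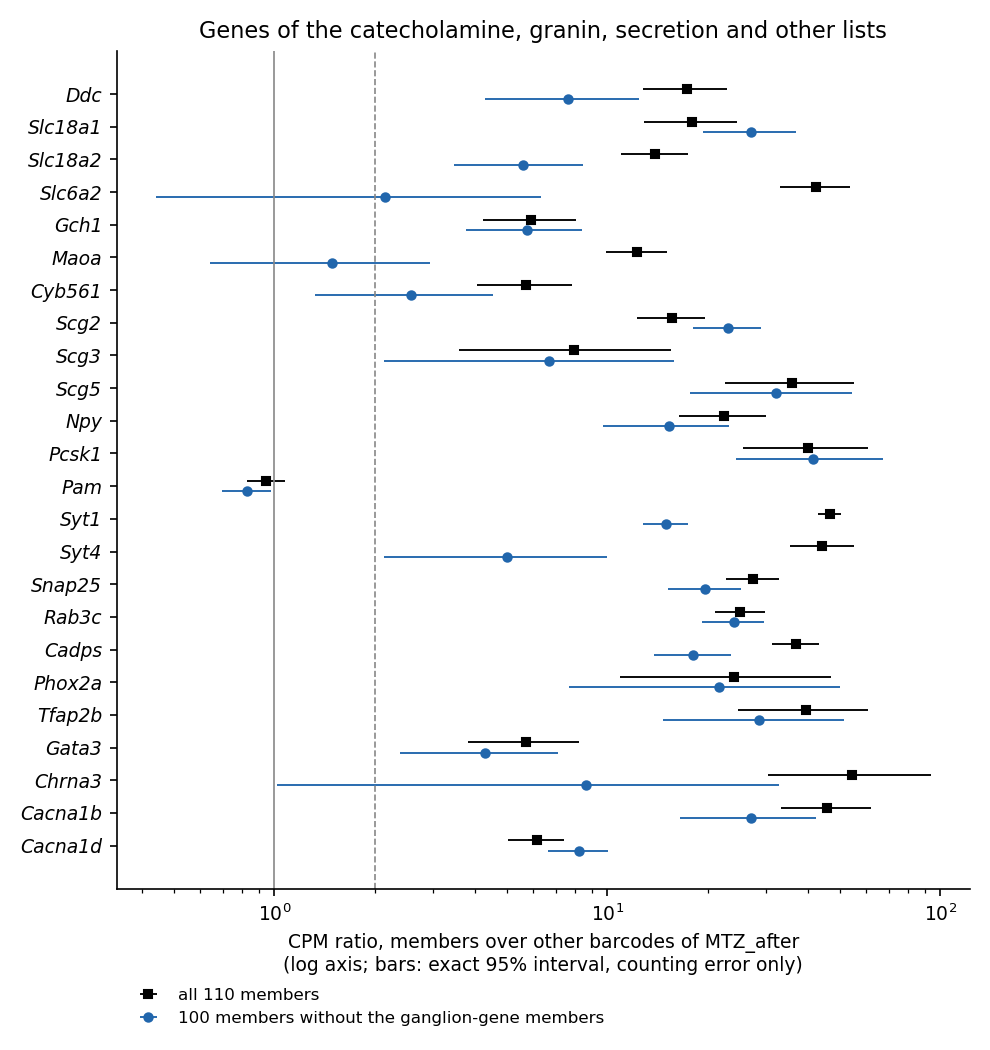
CPM ratio of the members over the other barcodes of MTZ_after (x, log axis, points with exact 95% intervals) for 24 genes of the catecholamine, granin, secretion, transcription factor, receptor and channel lists, over all 110 members and over the 100 without the ganglion-gene members. Slc6a2 and Maoa lie at 42.2 and 12.3 over all members and at 2.15 and 1.49 over the 100, while Rab3c lies at 25.1 and 24.

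Transcription factors of the sympathoadrenal lineage were higher in part. Of 20 genes, 12 could be compared, 7 were higher and 1 lower (3 of 7 higher and 0 lower without the 10). Tfap2b, a factor of neural crest derivatives, had a ratio of 39.4 (24.8 to 60.8) over all members, Eya1 of 12.4 (10.4 to 14.7), and Gata3 of 5.69 (3.82 to 8.20). In the 100 these ratios were 28.6, 6.73 and 4.30, with the first and the third resting on 13 and 15 UMIs. Gata2 was at 140 and 69.8 CPM, at the limit of 2 for a call (interval 1.35 to 2.87). Meis2 was the gene called lower, at 383 and 898 CPM, a ratio of 0.426 and of 0.604 in the 100.

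Ion channels set how chromaffin cells fire and how much calcium enters for release. Of 13 calcium channel genes, 7 could be compared and 5 were higher (3 of 6 without the 10). Cacna1d, an L-type channel that carries pacemaker current in mouse chromaffin cells, was at 527 CPM in the members and 85.7 CPM in other barcodes, a ratio of 6.15 (5.05 to 7.43) and of 8.21 (6.66 to 10.0) in the 100, where 55 barcodes had a UMI. Cacna1b, the N-type channel, was at 261 and 5.72 CPM, with ratios of 45.7 and 27.1 (16.5 to 42.3). Of 28 sodium and potassium channel genes, 15 could be compared, 14 were higher and 0 lower (8 of 8 higher without the 10, median log2 ratio 3.24).

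Within the potassium channels the members again differed among themselves. Kcnmb2, which inactivates the large-conductance calcium-gated channel and is known from rodent chromaffin cells, was at 196 CPM in the members and 12.5 CPM in other barcodes, and its 42 UMIs were all in the 100 (ratio 23.7, 16.8 to 32.6). Kcnk2, a background potassium channel, had all of its 76 UMIs in the 100, with a ratio of 27.5 (21.4 to 34.9). Kcnq3, a subunit of the M-current, had ratios of 26.7 in all members and 13.9 in the 100. Kcnip4, which modulates A-type channels, was the most counted of them with 1468 UMIs, of which 1316 lay in the 10, and its ratios were 41.0 and 6.41.

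Receptors that receive preganglionic and other input were sparse. Of 25 genes, 5 could be compared, 4 were higher and 1 lower (2 of 3 higher and 0 lower without the 10). Chrna7, a nicotinic subunit, was at 313 CPM in the members and 15.3 CPM in other barcodes, a ratio of 20.5 (15.6 to 26.5) and of 24 in the 100. Chrna3, the subunit of the ganglionic receptor, had 19 UMIs in 7 members, 17 of them in the 10. Chrm3, a muscarinic receptor, was the gene called lower, at 126 and 360 CPM, a ratio of 0.350 (0.230 to 0.509) and of 0.508 in the 100.

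Pan-neuronal genes were higher in all members and fewer could be compared without the 10. Of 20 genes, 14 could be compared and 13 were higher, against 5 of 5 without the 10. Elavl2 had ratios of 36.3 and 0.740 (0.0895 to 2.69), and Map2 of 22.6 and 8.59. Map2, a protein of neuronal microtubules, was thus higher with and without the 10, and Elavl2 was counted almost wholly in them.

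The genes with the highest ratios depended on the 10 members. Ranked by the lower end of the interval, the 25 highest genes over all members began with Brinp2, Cntnap2, Csmd2, Lingo2 and Rxfp1, at ratios of 102, 75.1, 95.9, 68.8 and 103. In 23 of these 25 genes over 50% of the member UMIs lay in the 10, and in 14 over 90% did. Ranked over the 100 members instead, the first 4 were Pnmt, Chga, Th and Chgb of the rule. Then followed Slc24a2, a potassium-dependent sodium-calcium exchanger (859 CPM in the 100, 21.0 CPM in other barcodes, ratio 40.9, 33.4 to 49.7) and Dlk1 (275 and 6.07 CPM, 45.2, 31.2 to 64.1). Mgat4c followed at 2140 and 62.0 CPM, a ratio of 34.5 (30.5 to 39.0). The rankings shared 3 genes of 25.

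The leading genes of the 100 were widely detected among them. Of the 25, 15 had a UMI in at least 30 of the 100 members and 7 had 0 UMIs in the 10. Nrg3, a neuregulin that binds ErbB4, was found in 86 of the 100 (4737 CPM against 199 CPM in other barcodes, ratio 23.9), Cntnap5a in 67 (ratio 28.1) and Sgcz in 58 (30.8). Dcc, a netrin receptor, was found in 53 (ratio 35.0), and was also high in the 10, with 117 UMIs in 9 of them. Unc80, part of the sodium leak channel complex, had a ratio of 42.7, Gria2, an AMPA receptor subunit, of 31.3, and Trpc5, a cation channel, of 33.0 with 22 UMIs in 12 members.

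**Figure D4:**
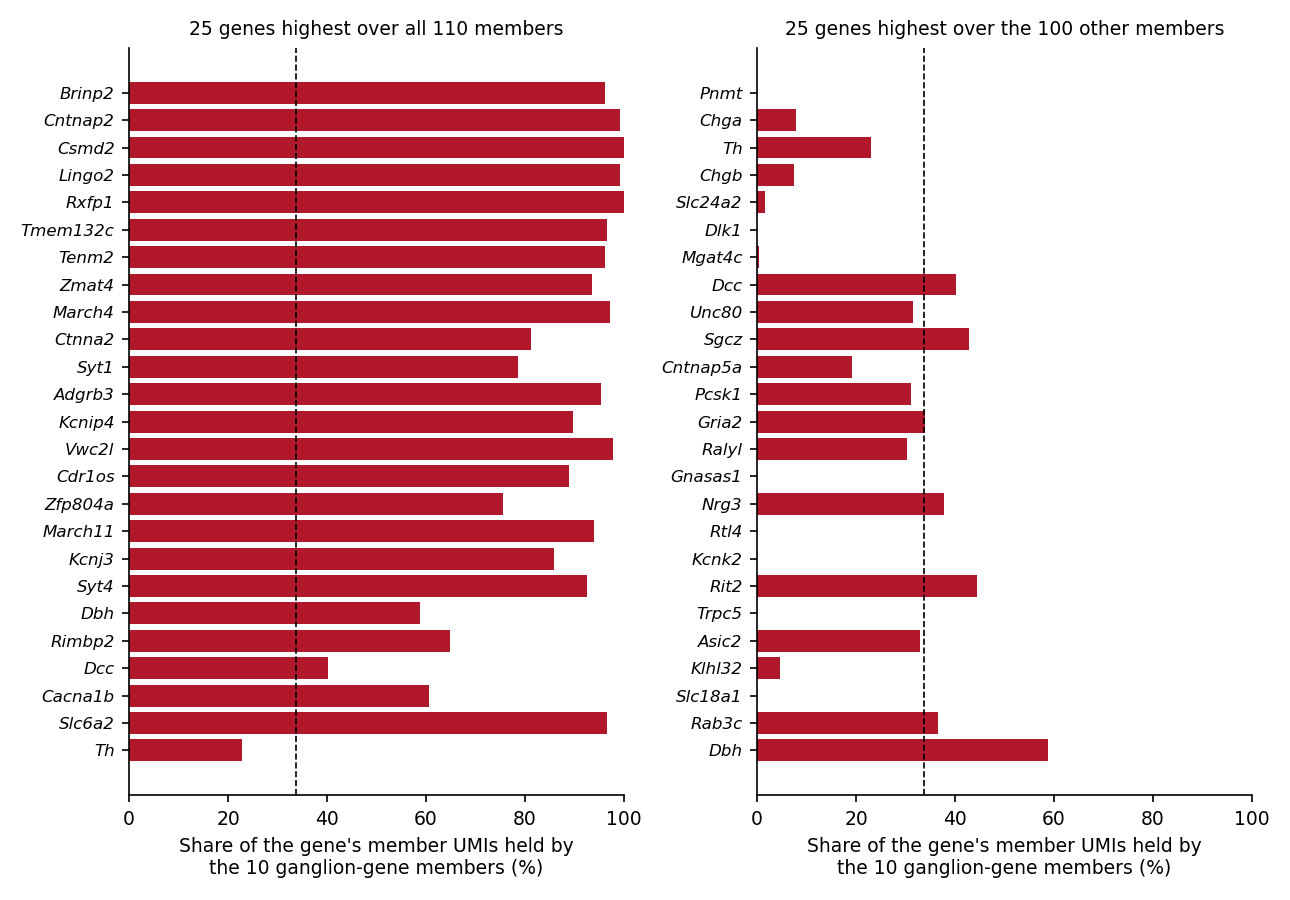
Share of each gene's member UMIs (x, %) that lay in the 10 ganglion-gene members, for the 25 genes ranked highest over all 110 members (left) and over the 100 others (right); the dashed line is their share of all member UMIs, 33.7%. On the left 23 of 25 bars pass 50%, and on the right 7 genes are at 0.

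The genes lowest in the members were Akr1cl of the rule (ratio 0.0809), then Nox4, an NADPH oxidase (84.0 CPM in the members, 337 CPM in other barcodes, interval of the ratio 0.148 to 0.395), Caln1 (0.246), Klf4, a Krüppel-like factor (0.175), and Abcb1b, a drug efflux pump (0.189). Of 12 hypoxia genes, which oxygen-sensing paraganglia are known for, 3 could be compared, 0 were higher and 2 lower (1 lower without the 10). Epas1, which encodes HIF-2alpha, was at 140 and 369 CPM, a ratio of 0.379 (0.256 to 0.541), and Vegfa at 149 and 421 CPM, 0.354; in the 100 they were 0.457 and 0.501. Car1 had 10 UMIs in 10 members, 46.7 CPM, against 63.1 CPM in other barcodes, a ratio of 0.740 (0.354 to 1.36), an interval that includes 1.

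Endothelial, macrophage, smooth muscle and fibroblast markers summed to lower levels in the members, and each of these lists holds a gene that the rule limits. The library itself held the cells of its labelled tissue: outside the members Myh11, a myosin of smooth muscle, was at 298 CPM and Pecam1, of endothelium, at 1051 CPM. The 9 endothelial genes summed to 1572 CPM in the members and 3553 CPM in other barcodes, and 6 of the 8 compared were lower, with Pecam1 of the rule the most counted (a UMI in 40 members). Without the ganglion-gene members they summed to 2105 CPM, and 3 of the 8 were lower. The 9 macrophage genes summed to 686 and 1191 CPM, and 1 of 4 compared was lower. The 8 smooth muscle genes summed to 462 and 1115 CPM, and 3 of 4 compared were lower. The 8 fibroblast genes summed to 1022 and 1351 CPM, and 2 of 5 compared were lower. Without the 10, 0 of 2 macrophage, 2 of 4 smooth muscle and 1 of 4 fibroblast genes compared were lower. Over all genes compared, 10.8% were lower with the 10 and 3.62% without them. With so few genes in each list, these counts are a description and no result. All 9 endothelial, 9 macrophage, 8 smooth muscle and 8 fibroblast genes had at least 1 UMI in the members, and the part of free RNA in these levels was not tested. Of 16 Schwann and sustentacular genes 5 were at 0, and only Ngfr could be compared, at 117 and 2.33 CPM, with 24 of its 25 UMIs in the ganglion-gene members.

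The adrenal cortex surrounds the medulla, and cortex-type barcodes, with UMIs of at least 2 of Akr1cl, Srd5a2 and Hsd3b1, were found in MTZ_after alone (837 barcodes, 1684763 UMIs, median 1395), with 0 in the other libraries. The members and the cortex-type barcodes cannot share a barcode under the rule. Of 3124 genes compared, 452 were higher in the members (14.5%) and 313 lower (10%), and without the ganglion-gene members 219 of 2083 were higher (10.5%) and 113 lower (5.42%). Of 18 cortex genes 12 could be compared and 10 were lower, with a median log2 ratio of -2.49 against -0.24 over all genes (7 of 8 lower without the 10). A gene rare in the members passed only where it was abundant in the cortex-type barcodes, so these counts are not support for the list. Against the other barcodes 3 of the 18 cortex genes could be compared. Cyp11b1, which makes corticosterone, was at 4.67 CPM in the members and 193 CPM in cortex-type barcodes, a ratio of 0.0242 (0.000610 to 0.136). Cyp21a1, the steroid 21-hydroxylase, was at 18.7 and 328 CPM, a ratio of 0.0570 (0.0155 to 0.147). The CPM ratio of Slc18a1 between members and cortex-type barcodes was 25.3, and that of Scg2 was 19.0. Without the 10 these ratios were 0.0365 for Cyp11b1, 0.0859 for Cyp21a1, 38.1 for Slc18a1 and 27.9 for Scg2.

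Pnmt divides adrenaline-making from noradrenaline-making chromaffin cells, and 15 members had a UMI of it. None of the 15 was a ganglion-gene member, so all members were compared and then the 100 alone. The median depths were 1186 UMIs in the 15 Pnmt-positive and 1185 in the 95 Pnmt-negative members, but the upper quartiles were 1309.5 and 2053 UMIs and the deepest barcodes had 5027 and 18215. The positive set held 22898 UMIs in all. Of 135 genes compared, 20 were higher in the Pnmt-positive members (14.8%) and 30 lower (22.2%); without the 10, 6 of 112 were higher (5.36%) and 3 lower (2.68%), and all 9 had been called with them. With TMM scaling of all 110 the split was 7 higher and 45 lower, and the median log2 ratio over all genes was -0.38 in place of 0.22.

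The genes highest in the Pnmt-positive members after Pnmt were Sorbs2 (1266 CPM, against 308 CPM in Pnmt-negative members, ratio 4.11, 2.54 to 6.51), Naaladl2 (3.80), Tafa1 (3.32) and Bmp6 (3.40). Of the member UMIs of Sorbs2, Naaladl2 and Bmp6, 14, 15 and 13 lay in 1 barcode. The 5 genes lowest were Kcnip4, Fgf14, Cntnap2, Lingo2 and Sema6d, with 0 to 6 UMIs in the Pnmt-positive members, and 89.6% to 99.3% of their member UMIs lay in the 10 ganglion-gene members. Without those 10, Cntnap2 had 4 UMIs in Pnmt-positive and 2 in Pnmt-negative members (ratio 10.4, 1.49 to 115) and Sema6d 2 and 6 (ratio 1.74, 0.171 to 9.70), so the direction of both rested on the 10, and Lingo2 had too few UMIs for a ratio. Th was found with Pnmt in 1 member, and whether single UMIs at this depth can separate adrenaline-making from other nuclei was not tested.

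Members were also set against the other 942 barcodes of their cluster, with only the 89 members inside it. Of 2660 genes compared, 315 were higher (11.8%) and 206 lower (7.74%). Without the 9 ganglion-gene members among the 89, 1571 genes were compared, of which 107 were higher (6.81%) and 53 lower (3.37%). The highest were Csmd2, Brinp2, Nefl, Syt4 and Tenm2, all with over 90% of their member UMIs in the ganglion-gene members. Dbh, a rule gene, was at 385 CPM in the 89 members and 64.4 CPM in the rest of the cluster, a ratio of 5.98, and of 3.47 (2.14 to 5.46) without the 9, which held 46 of its 72 UMIs. The lowest was Slc1a3, a glial-type glutamate transporter, at 16 CPM in the members and 120 CPM in the rest of the cluster, a ratio of 0.134 (0.0272 to 0.398), and Foxp2 followed at 0.260. Without the 9 they were 0.215, from 3 UMIs in the members and too few to be compared, and 0.392. Several secretion and channel genes named above had smaller ratios against the rest of the cluster than against all other barcodes. Over the 89 members the ratios were 2.25 for Snap25, 2.99 for Syt1, 3.19 for Cadps and 3.20 for Scg2. They were 2.98 for Slc18a2 and 4.54 for Cacna1b, and all of these were still called higher.

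The 4 libraries differed in these transcripts as wholes. The rule was met by 110 barcodes in MTZ_after (0.392%, 0.322 to 0.472) and by 5 of 19261 in MTZ_simultaneous (0.0260%). It was met by 0 of 38016 in high_fat and by 0 of 22339 in untreated, with upper ends of the interval at 0.00970% and 0.0165%. The median depth of kept barcodes was lowest in MTZ_after, at 828 UMIs, against 1417, 969 and 2026. Over all kept barcodes Chga was at 15.5 CPM in MTZ_after (489 UMIs), 0.212 CPM in MTZ_simultaneous (8 UMIs) and 0 in high_fat and untreated. Chgb was at 29.5, 0.899, 0.0597 and 0.145 CPM, and Pnmt at 2.38, 0.212, 0 and 0 CPM.

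Between MTZ_after and MTZ_simultaneous, genes shared with sympathetic nerves were less unequal. Dbh was at 10.7 CPM in MTZ_after, 4.07 in MTZ_simultaneous, 0.0199 in high_fat and 0.188 in untreated, and Slc6a2 at 12.6, 10.1, 0.538 and 1.17 CPM. Slc18a1 was at 13, 7.93, 10.7 and 2.98 CPM, so it was counted in libraries in which Chga was not. Barcodes with at least 2 ganglion genes made up 0.256% in MTZ_after, 0.410% in MTZ_simultaneous, 0.0158% in high_fat and 0.166% in untreated. Barcodes with at least 2 of the 10 check genes made up 1.26%, 0.800%, 0.200% and 0.372% in the same order, so check genes were found together also in the libraries in which no barcode met the rule. With 1 library per group, a difference in treatment, in the animals and in the tissue that was dissected with the aorta cannot be told apart. The sequences of 173, 376 and 171 MTZ_after barcodes also occurred in MTZ_simultaneous, high_fat and untreated, among them 1 member in each case.

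**Figure D5:**
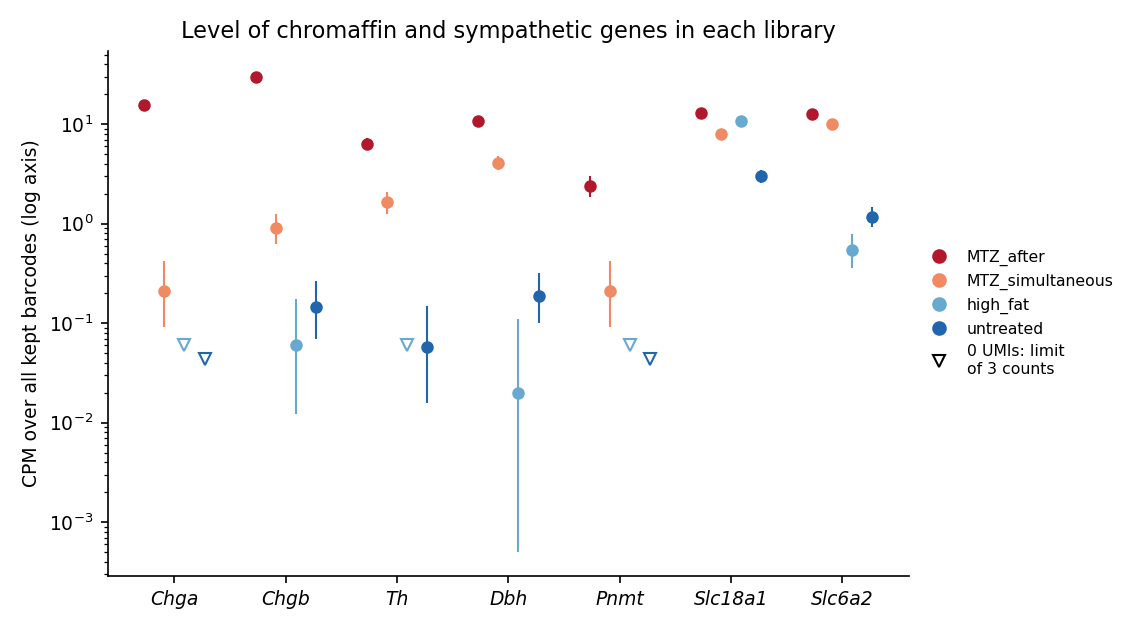
Level of 7 genes over all kept barcodes (y, CPM, log axis, with exact 95% intervals) in the 4 libraries; open triangles mark 0 UMIs at the limit of 3 counts. Chga and Pnmt were at 0 in high_fat and untreated, whereas Slc18a1 lay between 2.98 and 13 CPM in all 4.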

How the data were processed

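Single-nucleus libraries of aortic tissue were made with the 10x 3' kit, and the deposited matrices hold whole-number UMI counts per gene and barcode that the authors made with Cell Ranger 7.0.1, per the file headers; the submitters' processing notes also name STAR and mm10. Whether intronic reads were counted is not given in the sources used here. Total counts were 31517272 in MTZ_after, 37962370 in MTZ_simultaneous, 50358151 in high_fat and 69201159 in untreated.

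Counts were summed over each set of barcodes and scaled to CPM. Ratios against 0 counts used a floor of 3 counts over the set. With 1 library per group no test across samples exists, barcodes are not replicates, and p-values were not computed. Named genes were those with the interval bound nearest to 1 farthest from it among called genes: 25 higher and 5 lower against other barcodes, 10 and 10 against cortex-type barcodes, 5 and 5 by Pnmt, and members of the gene lists by role; mitochondrial, ribosomal protein, haemoglobin, Xist and Y-linked genes and gene models without a symbol of their own were left out of the ranking. Some members of the lists are counted in the lists but not reported here by name. Genes such as Slc18a1, Dlk1 and Maoa were named for the split after their values were seen. The members and lists were chosen with earlier results of these data known, and the split into 10 and 100 members was added after seeing the data. Clustering used scanpy 1.11.5 with counts scaled to 10000, 2000 variable genes, 30 components, 20 neighbours and Leiden resolution 1. Clusters that held members were described by their leading genes. The automatic threshold of Scrublet marked 0 of 28093 barcodes and so did not work; doublets were kept in the main setting, and the highest 8% of scores marked 2 members. Other tools were Python 3.11.15, numpy 2.4.6, scipy 1.17.1, pandas 2.3.3, and edgeR 4.0.16 in R 4.3.3 for TMM factors. The ratio script was tested on simulated data. Alternatives changed the rule, the depth, the weighting, the scaling and the count minimum.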

Additional observations from a re-analysis of the deposited data

Results flagged for a closer look

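The rule was also met by 5 barcodes of MTZ_simultaneous, a library that the comparisons of genes did not use, while 0 barcodes met it in high_fat and in untreated. The 5 had 13729, 4345, 1625, 12847 and 651 UMIs. Slc6a2 had 7, 2, 0, 10 and 0 UMIs in them, in the same order, and Cntnap2 151, 0, 0, 388 and 0. Pnmt was at 0 in all 5 and Slc18a1 had 1 UMI in 1 of them. Of the 3 barcodes with Slc6a2, 2 also had Cntnap2, as 9 of the 10 ganglion-gene members of MTZ_after did.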

How the results depend on the processing

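No paired analysis was possible because each group was 1 library. The member number was 110, and 23 with at least 3 markers or 42 with none of the 9 other-cell genes. Genes higher and lower against other barcodes (450 and 344) were 345 and 385 with at least 3 markers, the setting in which lower calls outnumbered higher ones, 163 and 100 with none of the 9, 394 and 211 with barcodes weighted equally, 3618 and 1844 with a minimum of 1 UMI, 214 and 120 with 50, 123 and 43 thinned to 500 UMIs, and 215 and 75 without the 10 ganglion-gene members, where Cntnap2 (0.740) and Lingo2 (0.699) reversed. Against cortex-type barcodes (452 and 313) they were 341 and 366, 151 and 93, 392 and 226, 3767 and 1772, 211 and 119, 121 and 58, and 219 and 113 in the same order. By Pnmt (20 and 30) they were 14 and 31, 0 and 4, 4 and 18, 3397 and 528, 2 and 7, 0 and 1, and 6 and 3, and 7 and 45 with TMM. Against the rest of the cluster (315 and 206) they were 107 and 53 without the 10. In the split by Pnmt, reversals were Naaladl2 (0.911) with none of the 9, and Cntnap2 (10.4) and Sema6d (1.74) without the 10. The cause of these moves was not tested beyond the smaller sets and minima themselves. Of other gene values, pooled over all settings, 687 stayed within their interval and 256 moved, and 28 had too few UMIs for a ratio. The pool includes settings that change only which genes are compared: with a minimum of 1 or of 50 UMIs all 92 stayed. Thinned to 500 UMIs, 58 moved and 28 stayed. With barcodes weighted equally 51 moved and 41 stayed, and with at least 3 markers 50 and 42. With none of the 9 other-cell genes 46 moved, 1 reversed and 41 stayed. Without the 10, 50 moved, 4 reversed and 31 stayed. Depth limits what the members show: at the floor of 3 counts a gene at 0 in the 10 could reach 41.5 CPM, and in all 110 it could reach 14 CPM.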

Other observations

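Of 12 stress and immediate early genes, 7 could be compared with other barcodes and 0 were called higher or lower, with a median log2 ratio of 0.07 (0 of 4, median 0.68, without the 10 ganglion-gene members). Against cortex-type barcodes 1 of 5 compared was higher, and 4 of 4 without the 10, with a median of 1.10. Fos was at 303 CPM in the members and 241 CPM in other barcodes, a ratio of 1.26 (0.972 to 1.61), and Junb at 271 and 213 CPM, 1.27 (0.965 to 1.65). In the 100 members without ganglion genes the ratios were 1.64 and 1.62, and over all members against cortex-type barcodes they were 2.19 and 1.75.

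Of 12 neurotrophic and growth factor receptor genes 5 could be compared, 1 was higher and 1 lower (0 of 4 called without the 10). Ret, the receptor for glial-derived neurotrophic factors, had 13 UMIs, 12 of them in the 10 ganglion-gene members. Ntrk3, the receptor for neurotrophin-3, was at 215 CPM in the members and 504 CPM in other barcodes, a ratio of 0.426 (0.312 to 0.568), with 1 of its 46 UMIs in the 10, and its ratio in the 100 was 0.628. Igf1r, the receptor for insulin-like growth factor 1, was at 425 CPM in both, a ratio of 0.998 (0.803 to 1.23), and its ratio in the 100 was 1.19.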
